A study of Mus musculus with 6 samples.

Results

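Unconventional myosins are the actin motors that do not build muscle-like filaments. Described here are 10 of them in subchondral bone of the condyle of the mouse lower jaw, at the temporomandibular joint: Myo16, Myo1c, Myo1d, Myo1e, Myo1f, Myo1g, Myo5a, Myo6, Myo9b and Myo10. They were taken by symbol from the authors' table of 23170 genes. All 10 had a row. Myo16 was chosen by its lower mean after partial discectomy, so its difference between the groups is given as a description with no test. Myo1f and Myo1g were picked as members found in blood cells, and all 10 with earlier results of these data known.

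The 6 libraries form 2 groups of 3, all from wild type mice, per the labels. In 1 group part of the disc of the joint had been removed (partial discectomy), and in the other the joint had a sham operation. Surgery was on 1 side, and bone came from the operated joint. The age label is P6w+PO2w in both groups, so 6 weeks and then 2 weeks, with prefixes that it does not spell out. The sample descriptions end in LPD for partial discectomy and Rctrl for sham, unexplained, so anything else these letters stand for cannot be told apart from the surgery. The descriptions also carry a number, and 1 library of each group has the number 6. Whether these come from 1 mouse, and whether the deposited p-values treat any libraries as paired, is not given in the sources used here. Whether each library is a separate mouse is not in the labels, so the spread between libraries may be partly technical. The tissue label was matched by its markers: all 10 genes of an osteoblast and osteocyte list had a mean of at least 10 above the floor, led by Col1a1, the main collagen of bone, at 27783 in sham. Chondrocyte genes were in the tissue too, led by Col2a1 at 2305 in sham and 3181 after partial discectomy. So were skeletal muscle genes, led as deposited by Ttn, the giant sarcomere protein, at 1685 in sham and 693 after partial discectomy. Per kilobase of exon over both groups, the muscle gene Acta1, at 39.0, was above Ttn, at 10.2.

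A myosin heavy chain has a head that binds actin and splits ATP, a neck that holds calmodulin or related light chains, and a tail that sets its class and cargo. Class II myosins assemble into filaments that contract. The unconventional classes act as single motors or in small groups: class I links membrane to actin, class V and class VI carry vesicles in opposite directions along actin, class IX acts on signals that set actin contraction, and class X works at the tips of filopodia. Myo16, of class XVI, has ankyrin repeats before its motor and is best known from brain.

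All levels are the authors' means of 3 libraries in a normalized unit with no name in the table. No group mean is below 1, a value taken as an offset and called the floor. A ratio divides the partial discectomy mean by the sham mean and has the 95% limits as deposited. A gene is called where the deposited p-value, adjusted over all 23170 genes, is under 0.05. The table gives no value per library. It does give the total, the highest value and the geometric mean of the 6 libraries, and with both group means these fix a range within which the 3 libraries of each group must lie. Groups whose ranges are apart cannot overlap.

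Myo16 (chromosome 8, 10153911 to 10634742, plus strand, GRCm38) had a mean of 18.7 in sham and 5.60 after partial discectomy in the authors' deposited table. The highest of the 6 libraries, at 23.8, was a sham library. The other sham libraries lay between 14.4 and 17.9, and the 3 partial discectomy libraries between 4.93 and 6.31. The groups therefore did not overlap, and the partial discectomy libraries were close together. The ratio in the authors' deposited table was 0.300 (95% limits 0.215 to 0.418), a log2 ratio of -1.74, which put Myo16 at place 15 of 23170 counted from the lowest. Without the highest sham library the ratio was 0.347, and with the floor subtracted from the means 0.260. Myo16 was 1 of the 24 genes called lower, 0.104% of all genes, and that call is part of how it was chosen. Groups that cannot overlap, with partial discectomy lower, were found for 1.89% of all genes.

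The level of Myo16 was modest: 69.6% of genes in the table had a lower mean over the 6 libraries, as deposited and not per length. Of the summed signal of 22 unconventional myosins it made up 1.55% in sham and 0.391% after partial discectomy, or 1.74% and 0.432% when each gene was divided by its exon length. Its gene spans 480832 bases, the longest span of the 10, and no annotated gene overlaps it. The nearest protein-coding neighbours with a row were Tnfsf13b, a survival factor of B cells, and Irs2, an adaptor of the insulin receptor. Neither was called in the authors' deposited table, with ratios of 0.952 (95% limits 0.619 to 1.46) for Tnfsf13b and 0.875 (0.590 to 1.30) for Irs2.

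**Figure D1:**
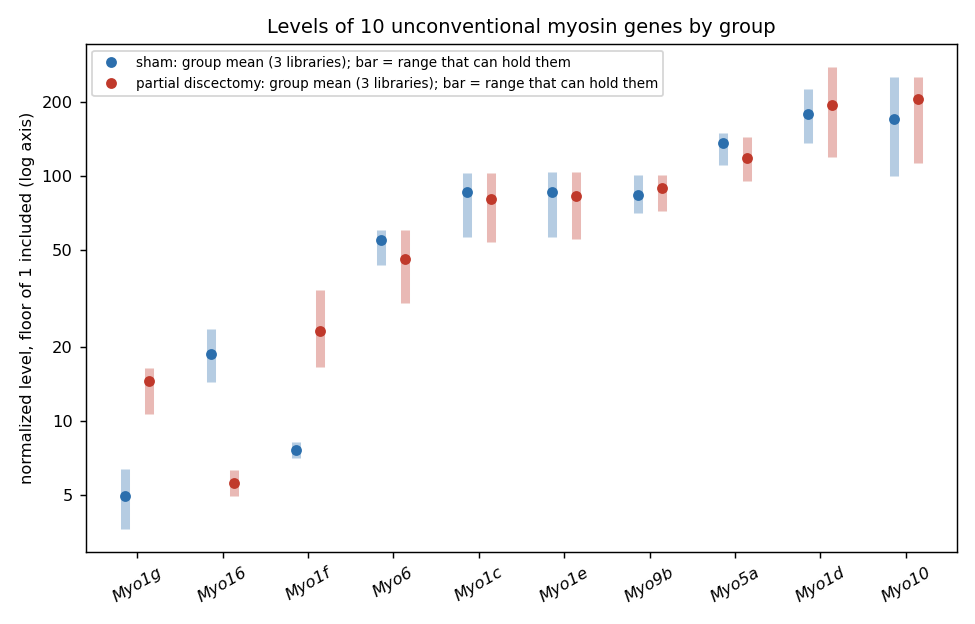
Authors' mean level of 10 unconventional myosins in sham (blue) and after partial discectomy (red), in the table's own normalized unit on a log axis with the floor of 1 included. Points are means of 3 libraries and bars the range that must hold those libraries; the bars are apart for Myo16, Myo1f and Myo1g and overlap for the other 7.

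The 4 genes called lower that stood next to Myo16 in the order of the ratio, among protein-coding genes, were taken for comparison. On the lower side were Kcna1, a potassium channel of axons, at 0.204 (95% limits 0.118 to 0.353), and Lrrc15, a membrane protein of activated fibroblasts, at 0.274 in the authors' deposited table. On the higher side were Neto1, a partner of glutamate receptors in neurons, at 0.319 (0.226 to 0.449), and Hlf, a transcription factor, at 0.334 (0.199 to 0.558) per the authors' deposited table. With the floor left in the means, the distance from Myo16 on the log2 ratio scale ran from -0.55 for Kcna1 to 0.15 for Hlf. Likeness here rests on 2 group means and nothing else. The deposited level of Lrrc15 was 136 in sham and that of Neto1, nearer the floor, 3.89. After partial discectomy Kcna1, at 1.55, and Neto1, at 1.24, were close to the floor. Their ratios would be lower with the floor subtracted, so the order around Myo16 depends on the floor. The groups could not overlap for Kcna1, Lrrc15 and Neto1, and for Hlf an overlap could not be decided. Over all genes 1.89% had such groups with partial discectomy lower, but these 4 were taken from genes already called lower.

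Myo1f and Myo1g, the class I myosins of white blood cells, rose about 3-fold. Myo1f is known from mouse neutrophils, where it takes part in adhesion and movement, and Myo1g from the plasma membrane of lymphocytes. Of the 10 genes these were the 2 called higher, where 2.28% of all genes were called higher and 2.38% in 1 direction or the other. Before adjustment, with p under 0.05, the same 2 of the 9 genes other than Myo16 were higher and 0 were lower. Of all genes 10.9% were higher, 3.31% lower and 14.2% either. Myo16 is left out of this count because its values chose it.

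Myo1f (chromosome 17, 33555707 to 33607764, plus strand) had a mean of 7.65 in sham and 23.3 after partial discectomy in the authors' deposited table. The 3 sham libraries lay between 7.07 and 8.26. One partial discectomy library reached 34.3, which is 49.0% of that group's total, and the other libraries of the group lay between 16.6 and 19.0. The sham libraries were close together, the partial discectomy group had 1 library well above the rest, and the groups did not overlap. The ratio in the authors' deposited table was 3.05 (95% limits 2.02 to 4.59, adjusted p = 0.0194), and 2.33 without the highest library.

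Myo1g (chromosome 11, 6506548 to 6520965, minus strand) had a mean of 4.95 in sham and 14.5 after partial discectomy in the authors' deposited table. The sham libraries lay between 3.63 and 6.40, and those of partial discectomy between 10.7 and 16.4. Here too the groups did not overlap, and no library stood far above its group, since the highest held 37.7% of the partial discectomy total. The ratio in the authors' deposited table was 2.93 (2.07 to 4.17, adjusted p = 0.0105), and 2.74 without the highest library. With the floor subtracted the ratios of Myo1f and Myo1g were 3.35 and 3.42. Groups that cannot overlap, with partial discectomy higher, were found for 7.2% of all genes, and in either direction for 9.09%. Of the 9 genes other than Myo16, which was chosen on its values, Myo1f and Myo1g were the 2 with such groups.

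Some markers of white and red blood cells were called higher in the same comparison, where 2.28% of all genes were, as follows. Of 5 genes shared by white blood cells, 2 were called higher. These were Ptprc (CD45), from 28.2 to 103, and Coro1a, an actin-binding protein of these cells, from 4.35 to 20.3 in the authors' deposited table. The means of the 5 genes above the floor summed to 112 in sham and 313 after partial discectomy. Of 12 neutrophil markers 10 were called higher, and the sum of the 12 went from 110 to 1452. All 8 erythroid markers were called higher, with sums of 11.9 and 227. Of 8 monocyte and macrophage markers 2 were called higher (sum 183 and 335). Of 8 B cell markers 1 was (54.8 and 146), and of 8 T and NK cell markers 3 were (5.83 and 14.9). With p under 0.05 before adjustment all genes of the shared, neutrophil, erythroid and B cell lists were higher. So were 6 T and NK cell markers and 4 monocyte and macrophage markers, where 10.9% of all genes were, and no gene of these lists was lower. No marker of these 6 lists was at the floor in either group, though 5 of the 8 T and NK cell markers had a mean within 1 of it, such as Cd3g at 0.0423 above it in sham. The part of these cells in the values of Myo1f and Myo1g was not tested. In bulk tissue, more cells of a type and more RNA per cell cannot be told apart, and for a lower gene fewer cells and less RNA per cell cannot either.

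The markers of other cell types gave the following values beside the lower level of Myo16. Of 7 nerve and glia markers none was called lower and 1, Mbp, which encodes a myelin protein, was called higher, at 4.91 in sham and 12.2 after partial discectomy in the authors' deposited table. The sum of these 7 genes was 71.6 in sham and 65.3 after partial discectomy, most of it from Pmp22, a myelin gene that other tissues also express. The glial marker Sox10 lay within 0.3 of the floor in both groups, and the neuronal tubulin Tubb3 was at 2.43 in sham and 1.68 after partial discectomy, with libraries of 2.06 to 2.79 and 1.52 to 1.85. Skeletal muscle markers had no call among 6, a median log2 ratio of -0.53 and sums of 1835 and 790.5, and for all 6 the highest library was a sham library. Most of both sums came from Ttn, with 116825 bases of exon, at 1684 and 692 above the floor. Osteoblast and osteocyte markers had no call among 10 and a median log2 ratio of 0.66, chondrocyte markers none among 6 and -0.07, and osteoclast markers none among 8 and 0.85, with sums of 1629 and 3102. Over all genes the median was 0.08. With p under 0.05 before adjustment, Tubb3 was lower among the nerve and glia markers, 3 osteoclast markers were higher, and the muscle, osteoblast and chondrocyte lists had 0 genes in either direction. At that threshold 10.9% of all genes were higher and 3.31% lower, and 2.28% were called higher after adjustment. The part of any of these cells in the value of Myo16 was not tested.

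The promoters of the 3 genes whose groups did not overlap are shown because they differ in base composition and in short motifs. They are RefSeq sequences on GRCm38.p6 from 250 bases before to 50 after the start site, and 9 of the 10 genes had one, with no entry used for Myo1d. The window of Myo16 is chr8:10153661-10153960 on the plus strand, that of Myo1f chr17:33555457-33555756 on the plus strand and that of Myo1g chr11:6520909-6521208 on the minus strand. Each is written 5′ to 3′ on the strand of its gene. Capitals mark 3 motifs on either strand, which do not overlap each other in these sequences: GGAAGT, a core of sites for ETS factors (ACTTCC on the other strand), TGTGGT, a core of sites for RUNX factors (ACCACA on the other), and GGGCGG, the GC box (CCGCCC on the other). The motifs were chosen after the sequences and the ratios were seen.
Myo16: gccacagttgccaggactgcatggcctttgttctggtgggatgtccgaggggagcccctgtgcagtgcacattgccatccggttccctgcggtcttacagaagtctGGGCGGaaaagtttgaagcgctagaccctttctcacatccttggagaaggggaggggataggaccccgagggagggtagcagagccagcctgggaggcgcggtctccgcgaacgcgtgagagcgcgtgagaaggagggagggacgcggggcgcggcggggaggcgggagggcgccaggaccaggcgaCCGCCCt
Myo1f: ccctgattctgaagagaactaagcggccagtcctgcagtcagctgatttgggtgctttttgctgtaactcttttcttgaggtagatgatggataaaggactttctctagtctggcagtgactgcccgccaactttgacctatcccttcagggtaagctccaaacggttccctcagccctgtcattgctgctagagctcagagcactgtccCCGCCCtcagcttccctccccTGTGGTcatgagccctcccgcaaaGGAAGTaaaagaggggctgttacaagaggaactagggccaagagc
Myo1g: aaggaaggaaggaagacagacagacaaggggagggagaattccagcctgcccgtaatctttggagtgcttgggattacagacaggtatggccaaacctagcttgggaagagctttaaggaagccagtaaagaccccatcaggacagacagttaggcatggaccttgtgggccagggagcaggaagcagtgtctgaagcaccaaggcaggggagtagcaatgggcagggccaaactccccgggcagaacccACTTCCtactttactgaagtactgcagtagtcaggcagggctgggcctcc

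Myo16 had 23 CpG pairs and 66.0% G and C in this window, more CpG pairs than 78.5% of the 32851 promoters in the table. Myo1f had 5 CpG pairs and Myo1g 2, where the median promoter had 7. Of the other members with a sequence, Myo5a had 36, Myo9b 30, Myo10 23, Myo6 22, Myo1e 16 and Myo1c, at the start site nearest its annotated start, 2. The letters GGAAGT occur in 23.8% of all promoters on either strand. They began at base 6 after the start site in Myo1f and stood on the other strand at base 1 in Myo1g, and Myo9b also had them, at base 1. TGTGGT, present in 16.8% of all promoters, was in the window of Myo1f and not in those of the other 8. The GC box, present in 35.7%, occurred 2 times in Myo16, 1 time in Myo1f and 7 times in Myo6. It also occurred 5 times in Myo10, 3 times in Myo9b and 1 time each in Myo5a and Myo1c. Myo1g and Myo1e had none. A match describes letters in the window and shows no bound factor.

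The class I myosins of many tissues, Myo1c, Myo1d and Myo1e, had ratios near 1 and no call. Myo1c is known for bringing glucose transporters to the membrane of fat cells and for its role in inner ear hair cells, Myo1d for setting left-right asymmetry in Drosophila and zebrafish, and Myo1e for the filtration barrier of kidney podocytes. Myo1c had means of 86.3 in sham and 81.0 after partial discectomy, and its libraries lay between 56.5 and 103 in sham and between 54.0 and 103 after partial discectomy. Its ratio in the authors' deposited table was 0.938 (95% limits 0.643 to 1.37). Myo1e was alike in level, with means of 85.8 and 83.2 and a ratio of 0.969 (0.664 to 1.41) per the authors' deposited table.

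Myo1d, the highest of the 10 per length, had means of 180 in sham and 194 after partial discectomy in the authors' deposited table. Its highest library, at 278, was from partial discectomy and held 47.8% of that group's total. The other libraries of that group lay between 119 and 185, and the sham libraries between 137 and 226. The ratio was 1.08 (0.683 to 1.71) per the authors' deposited table, and 0.848 without that library, so 1 library decided its side of 1. Of the 5 class I genes described, Myo1f and Myo1g were thus called and Myo1c, Myo1d and Myo1e were not. The limits of the first 2 began at 2.02 and 2.07 and those of the other 3 ended at or below 1.71, in the authors' deposited table. A test of the difference between genes could not be made from group means.

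The cargo carriers Myo5a and Myo6 had lower means after partial discectomy without a call. Myo5a moves pigment granules in melanocytes and vesicles in neurons, and the mouse coat colour mutation dilute lies in it. Its mean was 137 in sham and 119 after partial discectomy, with sham libraries between 111 and 149 and partial discectomy libraries between 95.1 and 144, so the ranges overlapped. Its ratio was 0.869 (0.630 to 1.20, adjusted p = 0.720) as given by the authors' deposited table. Myo6, the myosin that walks to the minus end of actin and is needed for hearing, had means of 55.0 and 45.8 and a ratio of 0.833 (0.575 to 1.21, adjusted p = 0.605) as given by the authors' deposited table. Its sham libraries lay between 43.2 and 60.0 and its partial discectomy libraries between 30.4 and 60.0.

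Myo9b and Myo10 had slightly higher means without a call. Myo9b is known to shape the movement of macrophages. Its means were 83.9 in sham and 89.1 after partial discectomy, with a ratio of 1.06 (0.788 to 1.43) per the authors' deposited table. All 6 of its libraries lay between 70.9 and 101, the tightest relative range among the 10. Myo10, which carries integrins and other receptors to filopodial tips, had means of 170 and 206 and a ratio of 1.21 (0.750 to 1.95, adjusted p = 0.699) as given by the authors' deposited table. Its libraries could lie anywhere between 100.4 and 254, so these data leave a rise close to 2-fold or a moderate drop within the limits. Across these 7 genes without a call the ratios ran from 0.833 to 1.21, the limits from 0.575 to 1.95 and the adjusted p from 0.605 to 0.955. Reads of genes that overlap a member, such as Haus8 on the opposite strand of Myo9b and an antisense RNA of Myo6, could add to it, since the handling of strand is not given in the sources used here. The 7 overlapping genes with a row had means of at most 6.36 in either group.

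**Figure D2:**
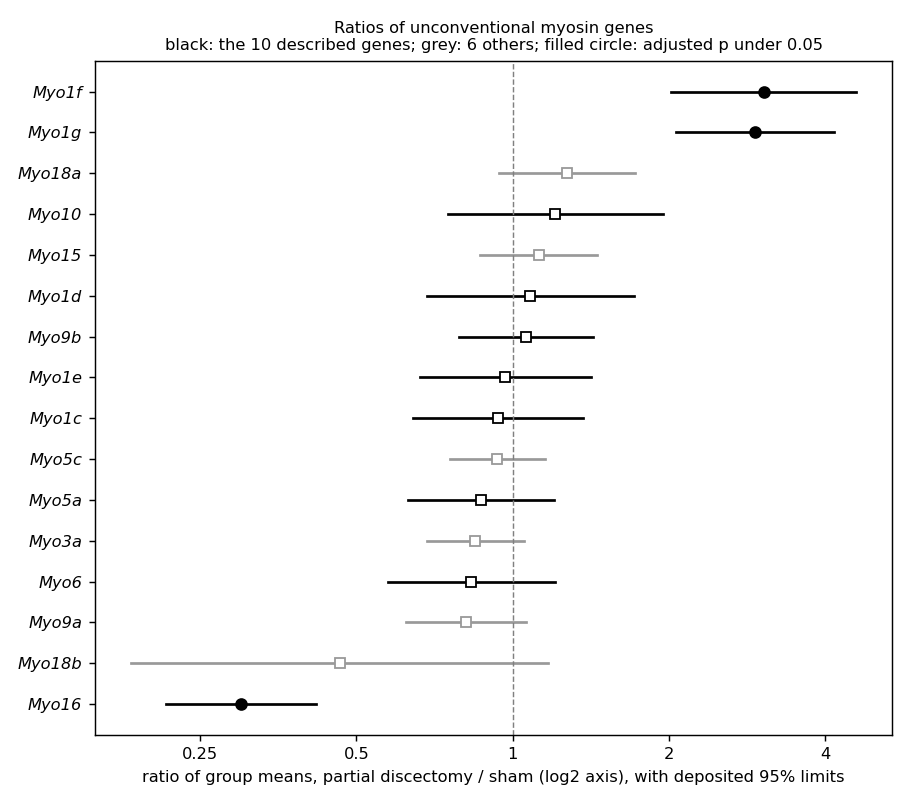
Ratio of group means (partial discectomy over sham, log2 axis) with deposited 95% limits for the 10 unconventional myosins described, in black, and 6 others named in the text, in grey; filled circles have an adjusted p under 0.05. Myo16 lies at 0.300, Myo1g at 2.93 and Myo1f at 3.05, and the limits of the other genes drawn include 1.

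Divided by exon length, the order of levels above the floor in sham was Myo1d, Myo10, Myo1e, Myo1c, Myo9b, Myo5a, Myo6, Myo16, Myo1f and Myo1g. The level per kilobase of exon was 27.6 for Myo1d, 16.7 for Myo10, 4.47 for Myo6, 2.24 for Myo16, 1.34 for Myo1f and 0.568 for Myo1g. From Myo1d to Myo5a each gene's range of libraries overlapped that of the next, while Myo6, Myo16, Myo1f and Myo1g had ranges apart from their neighbours in the order. After partial discectomy the level per kilobase was 29.9 for Myo1d, 4.49 for Myo1f, 3.71 for Myo6, 1.95 for Myo1g and 0.582 for Myo16. Myo16 thus stood above both blood cell myosins in sham and below both after partial discectomy, with ranges apart in each case. This is a description, since Myo16 was chosen by its lower mean after partial discectomy and the other 2 with earlier results known. Whether the authors' unit already allows for length is not given in the sources used here; as deposited, the sham order differed in the upper part, with Myo1d, Myo10 and Myo5a as the 3 highest, and was the same for Myo16, Myo1f and Myo1g.

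**Figure D3:**
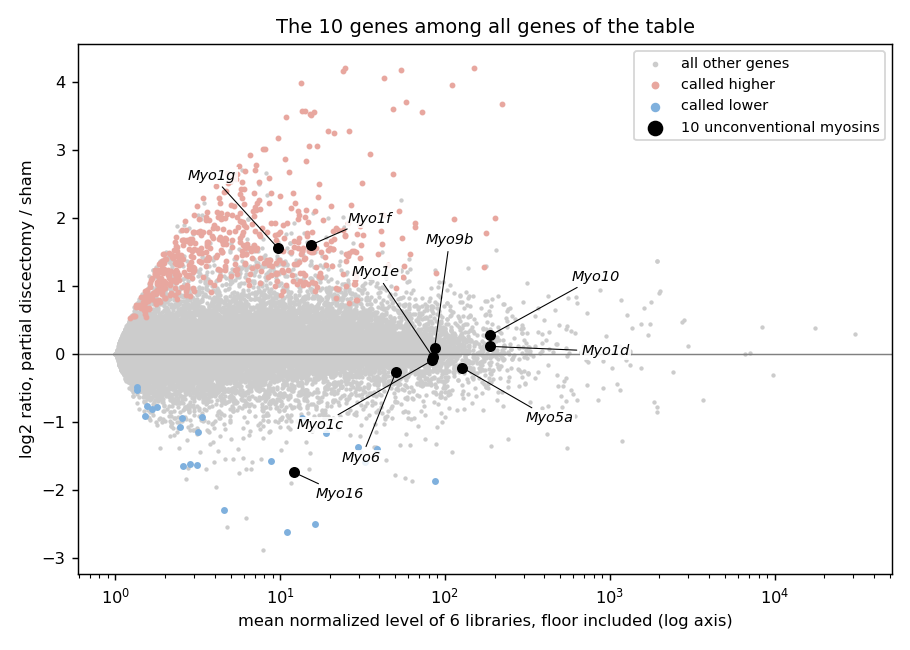
Log2 ratio (partial discectomy over sham) against the mean normalized level of 6 libraries (log axis) for all 23170 genes, with genes called higher in red, called lower in blue and the 10 unconventional myosins in black. Myo16 lies at -1.74, Myo1f and Myo1g at 1.61 and 1.55, and the other 7 between -0.26 and 0.27.

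The rest of the family had no call. Of 12 other unconventional myosins with a row, 0 were called by the adjusted p of the authors' deposited table, and 0 had an unadjusted p under 0.05. Their ratios were above 1 for 6 and below 1 for 6, with a median log2 ratio of 0.01. Among all 23170 genes ratios were above 1 for 14535 and below 1 for 8635. The highest ratio was that of Myo18a, a myosin of the Golgi and of actin bundles, at 1.27 (95% limits 0.942 to 1.72) per the authors' deposited table. The lowest was that of Myo18b, which is needed in striated muscle, at 0.464 (0.184 to 1.17), with a single sham library at 20.9 against a sham mean of 10.3 in the authors' deposited table. Myo9a, the other class IX gene, had a ratio of 0.813 (0.623 to 1.06, adjusted p = 0.479) as given by the authors' deposited table. Its partial discectomy libraries lay between 67.2 and 75.7 and its sham libraries between 79.9 and 95.3, so that its groups did not overlap although it was not called. Of the 12 genes, 6 had a mean within 1 of the floor, among them Myo3a, Myo5c and Myo15 of sensory and epithelial tissues.

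Conventional myosins and light chains had no call either. Among non-muscle class II heavy chains, Myh9, the main one of most cells, had means of 325 and 406 and a ratio of 1.25 (0.818 to 1.91), and Myh10 had 37.7 and 27.0 and a ratio of 0.717 (0.542 to 0.948, adjusted p = 0.246) as given by the authors' deposited table. Of 8 muscle heavy chains 6 had a ratio below 1, with a median log2 ratio of -0.37. The fast fibre chain Myh2 had the highest level and the lowest ratio, 0.528 (0.171 to 1.62), and Myh8 of developing muscle the highest, 1.26, in the authors' deposited table. At an unadjusted p under 0.05 Myh10 was the 1 lower gene of these 11, where 3.31% of all genes were lower. Of 11 light chains that serve non-muscle and unconventional myosins 0 were called and 10 had a higher mean after partial discectomy. Their median log2 ratio was 0.20. Over all 23170 genes the ratio was above 1 for 14535 and below 1 for 8635, with a median log2 ratio of 0.08. The lowest ratio was that of Calml4, at 0.932, and the highest that of Myl12b, a regulatory light chain, at 1.61 (1.14 to 2.27, adjusted p = 0.205) as given by the authors' deposited table.

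Known partners of Myo16 showed no call. Its partners include the Nyap proteins, which join it to the WAVE complex and PI3 kinase in neurons, and catalytic subunits of protein phosphatase 1. Of 13 such genes 0 were called, 9 had a ratio above 1, and the median log2 ratio was 0.05. Of all 23170 genes 14535 had a ratio above 1, and the median was 0.08. The lowest ratio was that of Wasf1 (WAVE1) at 0.710 (0.486 to 1.04), and the highest that of Cyfip2, of the WAVE complex, at 1.92 (0.690 to 5.32), per the authors' deposited table. The highest level, also per length, was that of Pik3r1, a regulatory subunit of PI3 kinase, at 208 in sham and 176 after partial discectomy. With p under 0.05 before adjustment 2 genes of the 13 were higher, where 10.9% of all genes were. The 2 were Nyap2 at 1.56 (1.06 to 2.29) and Ppp1cc at 1.44 (1.03 to 2.01), both with an adjusted p of at least 0.230 in the authors' deposited table. Nyap1, at a mean of 3.13 in both groups, had a ratio of 1.00 (0.664 to 1.51) per the authors' deposited table.

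Partners of the carriers and of Myo10 held 1 call, where 2.38% of all genes were called in 1 direction or the other. Rab27a, the small GTPase that ties granules to Myo5a, rose from 3.71 to 12.9, a ratio of 3.48 (2.18 to 5.55, adjusted p = 0.016) as given by the authors' deposited table. Its groups did not overlap, with sham libraries between 2.24 and 5.42 and partial discectomy libraries between 7.14 and 16.2. Such groups, with partial discectomy higher, were found for 7.2% of all genes. The part of blood cells in the value of Rab27a was not tested. Mlph, the linker between Rab27a and Myo5a in melanocytes, had a ratio of 0.814 (0.542 to 1.22), and Myrip, another such linker, had the lowest ratio of the list, 0.719 (0.574 to 0.901), per the authors' deposited table. Myrip was lower with p under 0.05 before adjustment, where 3.31% of all genes were, and its adjusted p was 0.162 in the authors' deposited table. Spire1, an actin nucleator, had the highest deposited level of these 7 genes, 33.8 in sham, and Rab11a, of recycling vesicles, the highest per kilobase, at 7.07 over both groups. Of 8 partners of Myo6 and 9 of Myo10 0 were called, with median log2 ratios of 0.15 and 0.03. Each list had 2 higher genes at an unadjusted p under 0.05, where 10.9% of all genes were higher. For Myo6 the ratios ran from 0.884 for Tom1l2 to 1.46 for Lmtk2, and the endocytic adaptor Dab2 had the highest level, also per length, at 132 in sham and 134 after partial discectomy in the authors' deposited table. For Myo10 they ran from 0.774 for the integrin gene Itgb5 to 2.08 for Vasp (1.31 to 3.31, adjusted p = 0.118), which extends actin filaments, in the authors' deposited table. Itgb1, the most common integrin beta chain, had the highest level, also per length, at 377 in sham and 380 after partial discectomy.

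Among 15 genes of actin turnover and adhesion, 1 was called higher, where 2.28% of all genes were. This was Was, the actin regulator of blood cells, from 3.47 to 9.90, a ratio of 2.86 (1.73 to 4.71, adjusted p = 0.0413) as given by the authors' deposited table. Its relatives in most tissues, Wasl and Wasf2, had ratios of 0.955 (0.692 to 1.32) and 1.11 (0.743 to 1.66) per the authors' deposited table. Of the 15 genes 11 had a ratio above 1, and the median on the log2 scale was 0.37. Of all 23170 genes 14535 had a ratio above 1, and the median was 0.08. Actb, the main actin gene, had the highest level, also per length, at 1020 in sham and 1514 after partial discectomy, with a ratio of 1.48 (0.808 to 2.73), and Diaph2, which nucleates straight filaments, had the lowest ratio, 0.898, in the authors' deposited table.

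**Figure D4:**
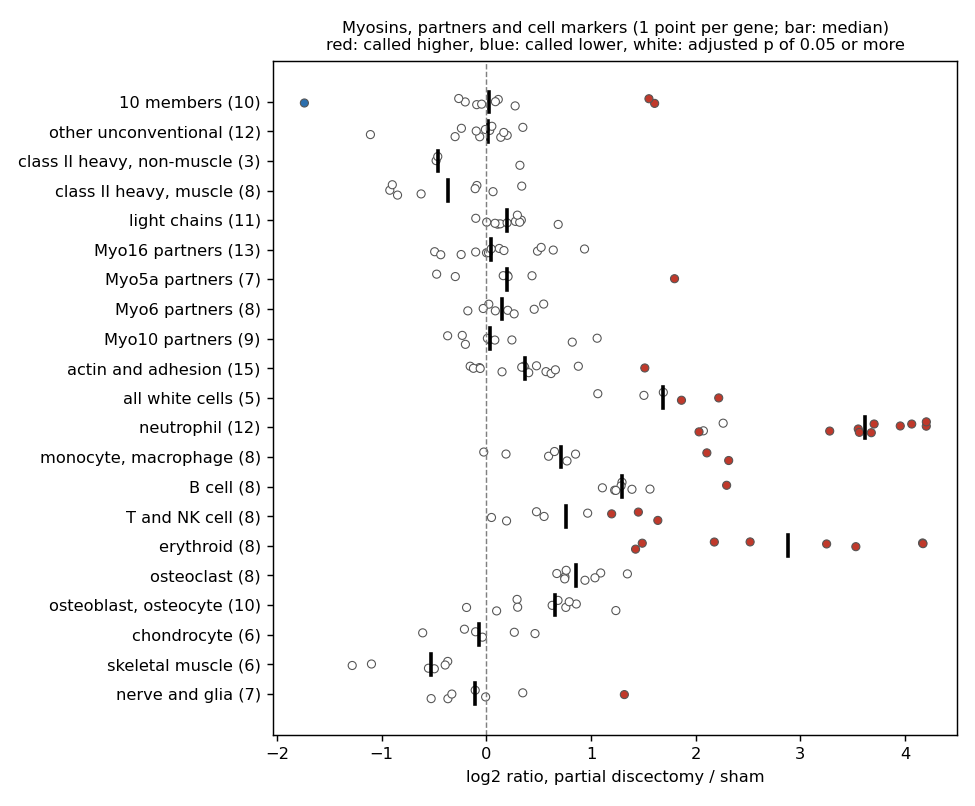
Log2 ratio (partial discectomy over sham) of each gene of the 10 described myosins and of 20 gene lists, with the number of genes in brackets, the median as a black bar, genes called higher in red and lower in blue. The median of the 10 genes is 0.02 with Myo16 at -1.74, while the medians of the neutrophil and erythroid lists are 3.62 and 2.89.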

How the data were processed

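RNA of 6 libraries was sequenced, 3 after partial discectomy and 3 after sham operation, and sample titles gave the groups. The submitters' processing notes name STAR 2.6.1d and build mm10. For the counter, gene filter, normalization, unit and model, the method is not given in the sources used here. The authors' deposited table holds the signal as group means with total, highest value and both means over 6 libraries, and a ratio, its log2, a score (signed fold change with 95% limits, turned here into ratios), a p-value and its step-up adjustment. Depth is unknown. A count test had been planned, and could not be run on group means, so the authors' deposited p-values are used. They measure a spread that is not named.

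The library ranges follow from the group means, the highest value and the geometric mean, with no library under 1. The deposited summaries of all 23170 genes can come from 6 such values, and the calculation was tested on simulated data. Gene positions matched GENCODE M21 for 96.87% of genes, and exon length is the union of its exons. Members, 20 lists and the naming rule were chosen with earlier results of these data known. The rule names every member, and of each list the genes called, the one with the highest level and those with the highest and lowest ratio; other genes were named after their values were seen. A few list genes are not reported here. Motifs were chosen after the sequences were seen and counted with Python 3.11.15 and pandas 2.3.3 in RefSeq promoters.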

Additional observations from a re-analysis of the deposited data

How the results depend on the processing

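The ratio of Myo16 was between 0.260 and 0.347 under 4 alternatives (floor subtracted, 2 other centres, highest library left out). Myo1f and Myo1g kept ratios above 2 under the same 4. Centring on the sums of the group means, a shift of 0.13 on the log2 scale, put Myo1d and Myo9b at 0.987 and 0.968. Of the 9 members other than Myo16, Myo1f and Myo1g were called under all 6 other call rules, and of the 12 other unconventional myosins 0 were. An adjusted p under 0.1 and an unadjusted p under 0.05 are looser rules, which Myo1f and Myo1g had to pass. The deposited limits also call more genes, so these looser rules add nothing for Myo1f and Myo1g. Adjusted over genes with a mean of at least 5 above the floor, Myo1f had an adjusted p of 0.0184 and Myo1g 0.00969, and over the other gene sets 0.0141 to 0.0152 and 0.00751 to 0.00805. The number of genes called over the whole table was 243 with that filter, 964 at an adjusted p under 0.1, 3299 at an unadjusted p under 0.05 and 3398 by the deposited limits, against 552. With values down to 0 the library ranges of Myo16, Myo1f and Myo1g stayed the same, so this setting adds nothing for these 3 genes. Myo16 was chosen on its values. With values down to 1, groups that cannot overlap in either direction were found for 9.09% of all genes. No paired analysis was possible because the table holds group means and no value per library. For the same reason replicates could not be left out in turn, beyond the highest library where its group is known.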

Other observations

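Of the 16 protein-coding genes called lower in the authors' deposited table, 5 more were looked at after their values were seen, with no test of any group. Rtn4r, a receptor that limits axon growth, was at 3.33 in sham and 1.59 after partial discectomy, and Nalcn, a sodium leak channel, at 3.32 and 1.74 in the authors' deposited table. Kif5a, a kinesin of axonal transport, was at 4.40 and 2.32, and Nptx1, a pentraxin of synapses, at 1.60 and 1.11 in the authors' deposited table. Wasf3, a WAVE protein related to the partner Wasf1 of Myo16, was at 4.36 and 1.98, with a ratio of 0.454 (95% limits 0.316 to 0.650) per the authors' deposited table. All 5 were close to the floor, and the library ranges of the groups were apart for each. Over all genes 1.89% had such ranges with partial discectomy lower, but these 5 were taken from genes already called lower. The remaining protein-coding genes called lower were Igf2, Wnt10b, Tppp3, Plekha6, Gm43302 and Fam227b. Igf2, a growth factor, was at 42.5 in sham and 16.5 after partial discectomy, and Wnt10b, a Wnt ligand, at 17.9 and 9.33. Tppp3, a tubulin-binding protein, was at 26.3 and 11.8, and Plekha6 at 13.1 and 4.40 in the authors' deposited table. Gm43302 (1.99 and 1.05) and Fam227b (1.57 and 1.12) were close to the floor in the authors' deposited table.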
